A study of Saccharomyces cerevisiae with 40 samples.

Results

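The segregants described here are haploid spore clones of a cross between the yeast strains S288C and 59A, split into 2 groups by the level of AI2. AI2 (Q0055) is the row of the array for an intron of COX1, the mitochondrial gene for subunit 1 of cytochrome c oxidase. The groups were chosen by the measured values themselves. A segregant was put in the AI2-low group where its AI2 log2 ratio to the reference pool lay below -0.5 and in the AI2-high group otherwise, which gave 6 AI2-low and 24 AI2-high strains among the 30 segregants. The series holds 40 samples in all, the other 10 being 5 cultures of each parent.

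S288C is the haploid laboratory strain whose genome is the yeast reference, and its mating type is given as MATa in the labels and as MATα in the methods. 59A is a haploid, prototrophic MATa derivative of the commercial wine yeast EC1118. All strains fermented the synthetic must MS300 at 28 °C, and RNA was taken at 50% of the fermentation, that is, after the release of 45 g of CO2. Each segregant was 1 culture, whose Cy3-labelled RNA was set against a Cy5-labelled pool of RNA of the 30 segregants on spotted 70-mer arrays, so that a log2 ratio of 0 means the level of the pool. No segregant has a second culture, and strains stand as replicates of an AI2 group only through the split.

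Mitochondria of yeast carry a small genome of their own, which codes for a few subunits of the respiratory chain and of the ATP synthase and for the RNAs of the mitochondrial ribosome. COX1 and COB, the gene for cytochrome b, are interrupted by introns, several of which code for a maturase that helps to splice its own intron or for an endonuclease or reverse transcriptase that helps the intron to spread. The number of these introns differs between yeast strains. The mitochondrial genome does not follow the nuclear chromosomes in meiosis: after a cross 1 type is usually fixed during the first cell divisions, and the spores of an ascus then usually carry the same type. Under fermentation on high sugar, respiratory genes are repressed by glucose.

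The AI2 log2 ratios of the AI2-low segregants were -1.47 in 20a, -1.34 in 28b, -1.33 in 5a, -1.07 in 19c, -0.85 in 4c and -0.72 in 14a. Those of the AI2-high segregants ran from -0.19 through a median of 0.48 to 0.96. The segregant just inside the limit was 14a and the one just outside was 1b, at -0.19, with a gap of 0.53 between them (chosen on these values, hence given without a test). AI2 was near the pool in the S288C cultures, at 0.02, 0.31, -0.15, 0.15 and 0.18, and far below it in those of 59A, at -2.09 in 4 of the cultures and -1.95 in the remaining one. No segregant came as low as 59A.

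**Figure D1:**
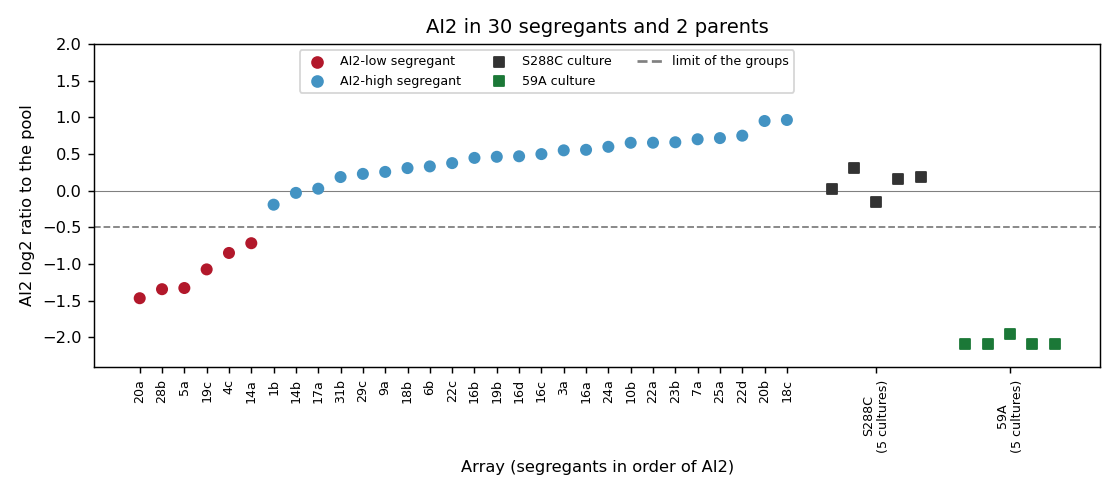
AI2 log2 ratio to the pool (vertical axis) on each array, with the segregants in order of AI2 on the horizontal axis and the parental cultures on the right. The 6 AI2-low segregants lie between -1.47 and -0.72, below the dashed limit of -0.5, and the 59A cultures lie lower, between -2.09 and -1.95.

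Before the results, 3 features of the arrays need to be given. Arrays of segregants correlated with each other from -0.44 to 0.86 over all rows, and the highest of these values joined 19c and 20a, which are both AI2-low. The first principal component of the nuclear rows held 31.1% of their variance, and 20a (-29.5), 19c (-26.8), the AI2-high 16d (-25.7), 18b (-17.2) and 18c (-13.7), and 5a (-13.0) had its lowest scores. The array of 4c stood apart from its group, with a mean correlation of 0.13 with the other AI2-low arrays and of 0.33 with the AI2-high ones, while the other 5 AI2-low arrays had mean correlations of 0.38 to 0.44 within their group. The labels give no batch. The counts, and the called genes that lost their call without 19c and 20a, are therefore also given without these, and the genes in which 4c differed most without 4c.

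The other rows of the COX1 gene were low in the same segregants. COX1 itself was at -0.34 in 4c, -0.96 in 5a, -0.95 in 14a, -1.12 in 19c, -0.87 in 20a and -0.98 in 28b, against -0.12, 0.47 and 1.29 as lowest, median and highest of the AI2-high group. The groups did not overlap for COX1, and 4c was closest to the AI2-high strains. AI5β, a further intron of the gene, was at -0.99 ± 0.20 (SD, n = 6) in the AI2-low and 0.41 ± 0.45 (SD, n = 24) in the AI2-high group, again without overlap, and so was AI3, at -0.75 ± 0.29 against 0.42 ± 0.32. AI1 differed by 1.22 on the log2 scale, AI4 by 0.85 and AI5α by 0.63, each with some overlap. AI1 stood at the level of the pool in 4c and between -1.26 and -0.69 in the other 5. These 6 rows come from the same precursor RNA as AI2, which made the groups, and are a description with no test. The sources used here do not say whether an oligonucleotide for an intron reads precursor, excised intron or both, nor how the labelled strand was primed.

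ATP8 and ATP6, subunits of the membrane part of the ATP synthase, lie downstream of COX1 on the same primary transcript and are for this reason also described without a test. ATP8 was at -1.63 in 4c, -1.63 in 5a, -0.88 in 14a, -1.15 in 19c, -1.18 in 20a and -0.67 in 28b, and from -0.59 through 0.27 to 1.14 in the AI2-high group. Every AI2-low strain was thus below every AI2-high strain, and the difference of the means was 1.42 on the log2 scale (2.67-fold). ATP6 differed by 1.32, again without overlap, with AI2-low values from -1.40 in 19c to -0.70 in 14a.

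Genes elsewhere in the mitochondrial genome were also lower in the AI2-low segregants. Of the 7 mitochondrial rows on the array that lie outside the transcript of COX1, ATP8 and ATP6, 7 were called at an adjusted p under 0.05 and each was higher in the AI2-high group (limma over the 30 segregants, Benjamini-Hochberg over 4387 rows, AI2 left out). Over all rows 29.6% were called, 12.6% as higher in the AI2-high and 17.1% as higher in the AI2-low group. Exact permutation of the group labels, over all 593775 ways to draw 6 of the 30 strains, gave p from 1.7e-06, the smallest it can give, to 0.00083 for the 7 rows. COB, BI2 and BI4 share a precursor and do not count as separate genes. In a culture, fewer copies of the mitochondrial genome and less RNA from each copy cannot be told apart.

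OLI1, the ring subunit of the ATP synthase, divided the AI2-low group. It was at -1.02 in 5a, -1.19 in 14a, -1.39 in 19c, -1.65 in 20a and -1.74 in 28b, but at 0.20 in 4c, within the AI2-high range of -1.05 to 0.74. The difference of the groups was 1.35 ± 0.22 (SE, limma adjusted p = 0.00012). The lowest AI2-high value was that of 14b, the sister of 14a.

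COB, the cytochrome b gene, differed by 1.22 ± 0.15 on the log2 scale (SE, 2.33-fold, limma adjusted p = 4.9e-06). Its values in the AI2-low group were -0.79 in 4c, -1.43 in 5a, -0.33 in 14a, -0.98 in 19c, -0.96 in 20a and -0.99 in 28b, with only 14a inside the AI2-high range of -0.47 to 0.85. Its introns BI2 and BI4, the latter coding for a maturase that also serves COX1, were less far apart. BI4 was at -0.54 ± 0.27 (SD, n = 6) against 0.25 ± 0.23 (SD, n = 24) and did not overlap (difference 0.79, limma adjusted p = 1.3e-05). BI2 was at -0.46 ± 0.17 against 0.16 ± 0.40, with all 6 AI2-low values inside the AI2-high range (difference 0.62, limma adjusted p = 0.0059), and it was the row whose call was lost first: its adjusted p was 0.067 without 19c and 20a and 0.059 with the first spore of each ascus only.

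COX2, which codes for the subunit of cytochrome c oxidase that takes up electrons from cytochrome c, differed by 0.69 ± 0.15 (SE, limma adjusted p = 0.0021). It was at 0.23 in 4c and between -0.78 and -0.41 in the other 5 AI2-low strains, which overlapped the AI2-high range of -0.52 to 1.10. The open reading frames Q0182 and Q0297, to which no role is given here, differed by 0.89 (adjusted p = 0.00026 by limma) and 0.54 (adjusted p = 0.0023). Q0297 was close to the pool in the AI2-low strains, between -0.17 and 0.20, and its difference lay in the high values of the AI2-high group, whose median was 0.51.

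**Figure D2:**
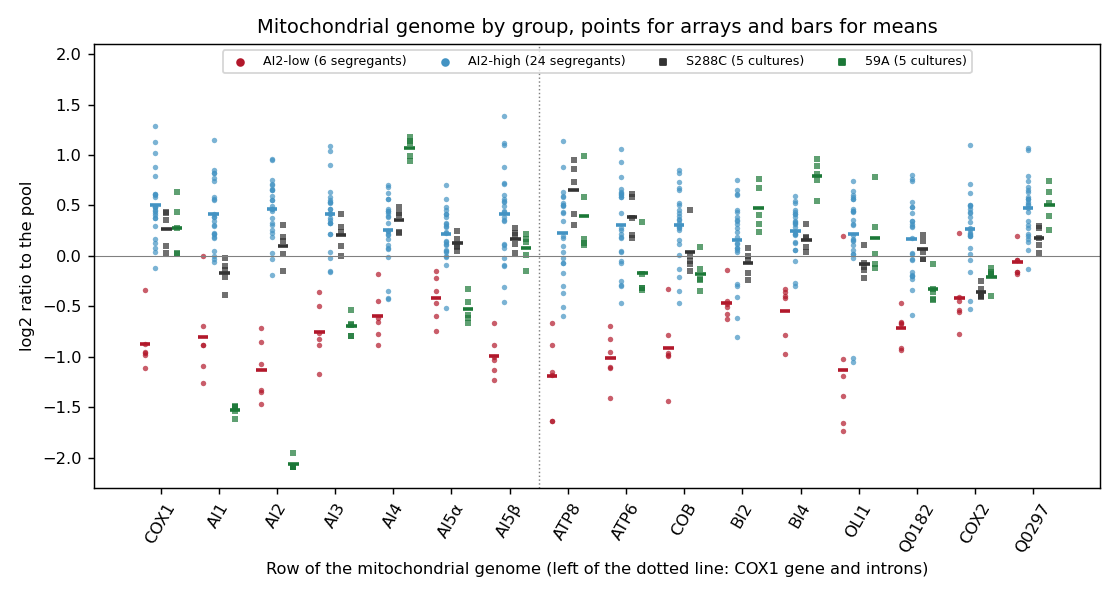
Log2 ratios to the pool (vertical axis) of the 16 rows of the mitochondrial genome (horizontal axis) in the 6 AI2-low and 24 AI2-high segregants and the 5 cultures of each parent, a point for each array and a bar for each mean. The AI2-low means lie below 0 in all 16 rows, from -1.19 for ATP8 to -0.06 for Q0297, whereas 59A is lowest for AI2 (-2.06) and AI1 (-1.53) and above the pool for AI4 (1.07) and BI4 (0.79).

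Without 19c and 20a, 6 of the 7 rows stayed past the threshold, with differences such as 1.19 for COB, 1.16 for OLI1 and 0.88 for BI4 (limma adjusted p = 0.00032, 0.0087 and 0.00026). Leaving out all 6 arrays with the lowest scores on the first component, 3 of them AI2-low, left 4 of 7, with BI2, COX2 and Q0297 at adjusted p of 0.20, 0.11 and 0.077 by limma. With the score itself as a covariate 6 of 7 were called, all but BI2. Each of the 30 fits with 1 segregant left out called 7 of 7.

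Averaged over the 15 mitochondrial rows other than AI2, the log2 ratio was -0.53 in 4c, -0.79 in 5a, -0.62 in 14a, -0.81 in 19c, -0.76 in 20a and -0.84 in 28b. In the AI2-high group it ran from -0.16 through 0.35 to 0.76. The AI2-high strains below the pool were 1b (-0.16), 14b (-0.07) and 31b (-0.07), which have the lowest, the second lowest and the fourth lowest AI2 of their group. All 15 rows were below the pool in 14a, 19c, 20a and 28b, 14 in 5a and 13 in 4c.

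The proposal behind the split was that a low AI2 could mark the mitochondrial genome of 59A. The parents were compared to set their profiles beside that of the AI2-low strains. Which mitochondrial genome, or part of one, each segregant carries was not tested. In 59A the introns went in opposite directions. AI1 was at -1.53 ± 0.05 in 59A and -0.17 ± 0.14 in S288C (SD, n = 5 each), AI3 at -0.70 ± 0.10 against 0.21 ± 0.16, and AI5α at -0.53 ± 0.14 against 0.13 ± 0.08, each called as lower in 59A (limma, 5 against 5, Benjamini-Hochberg over 4388 rows, adjusted p under 0.01). AI4, in contrast, was at 1.07 ± 0.10 in 59A and 0.36 ± 0.12 in S288C, BI4 at 0.79 ± 0.16 against 0.16 ± 0.11, and BI2 at 0.48 ± 0.23 against -0.07 ± 0.13, each called as higher in 59A (limma adjusted p = 2.9e-06, 3.5e-05 and 0.00084). Between the parents 30.8% of all rows were called at this threshold.

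COX1 itself was close in both parents, at 0.28 ± 0.27 in 59A and 0.27 ± 0.19 in S288C (SD, n = 5 each, difference -0.01 ± 0.12 SE, limma adjusted p = 0.95). Of the other rows, ATP8, COB, OLI1, COX2 and AI5β did not pass the parental threshold either (limma adjusted p from 0.057 to 0.32). ATP6, at -0.16 in 59A and 0.39 in S288C, and Q0182, at -0.33 and 0.07, were called as lower in 59A (limma adjusted p = 0.0045 and 0.001). Q0297, at 0.51 and 0.18, was called as higher in 59A (limma adjusted p = 0.0091). In all, 10 of the 16 mitochondrial rows were called between the parents, 6 as lower and 4 as higher in 59A. The mean of the AI2-low segregants was below both parental means in 13 of the 16 rows, among them COX1, ATP8, COB, OLI1, COX2 and AI5β. It was above that of 59A in AI1, AI2 and AI5α. How well the 70-mers match the 59A sequence was not examined.

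The contrast of the introns that were high in 59A (AI4, BI2 and BI4) with 2 that were low (AI1 and AI3) puts this into 1 value for each array. It was chosen after the values were seen and is given without a test. It leaves out AI2, which made the groups, and AI5α, which were also lower in 59A. The mean of the former minus that of the latter was 1.73 to 2.05 in the 59A cultures and 0.00 to 0.22 in those of S288C. It was -0.36 in 4c, 0.14 in 28b, 0.22 in 19c, 0.29 in 5a, 0.47 in 20a and 0.71 in 14a, and -1.51 to 0.50 in the AI2-high group. None of the 30 segregants came near 59A on it. The most negative value was that of the AI2-high strain 23b, in which AI1 (1.15) and AI3 (0.90) were high and BI2 (-0.80) and AI4 (-0.35) low. The groups are called by their AI2 level and not by a parental mitochondrial genome, since the latter was not determined in the segregants.

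Sister spores fell on both sides of the split. Of the 6 asci with 2 or more segregants, 3 (14, 19 and 20) had 1 AI2-low and 1 AI2-high spore, and 3 (16, 18 and 22, with 4, 2 and 3 spores) had AI2-high spores only. The AI2-low strains 4c, 5a and 28b were the only segregants of their asci. In ascus 20, AI2 was -1.47 in 20a and 0.95 in 20b, ATP8 was -1.18 against 1.14, OLI1 was -1.65 against 0.56 and COB was -0.96 against 0.74. All 15 other mitochondrial rows were higher in 20b, by 0.36 to 2.32.

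In ascus 19 the same 15 rows were higher in 19b than in 19c, by 0.01 for BI2 to 1.70 for OLI1. Ascus 14 was divided within the genome. 14b was above 14a by 0.99 for COX1, 1.21 for AI3 and 1.24 for AI5β, but the sisters were close for OLI1 (-1.19 in 14a and -1.05 in 14b) and COX2 (-0.54 and -0.44), and COB was 0.14 lower in 14b. Each spore is 1 culture, so these differences have no replicate check.

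Nuclear genes differed widely between the groups, but the number of genes called rested on 19c and 20a. Of 4372 nuclear rows 1285 were called, 536 as higher in the AI2-high and 749 as higher in the AI2-low group (limma, adjusted p under 0.05). Without 19c and 20a, 243 nuclear rows were called, 105 and 138 in those directions, and 235 of them were among the 1285. Over all rows 5.86% were called in that fit, against 29.6% with all segregants. Leaving out all 6 arrays low on the first component left 93 nuclear calls, 91 of them among the 1285. What sets 19c and 20a apart was not tested. Both fits also have fewer AI2-low strains, 4 and 3.

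**Figure D3:**
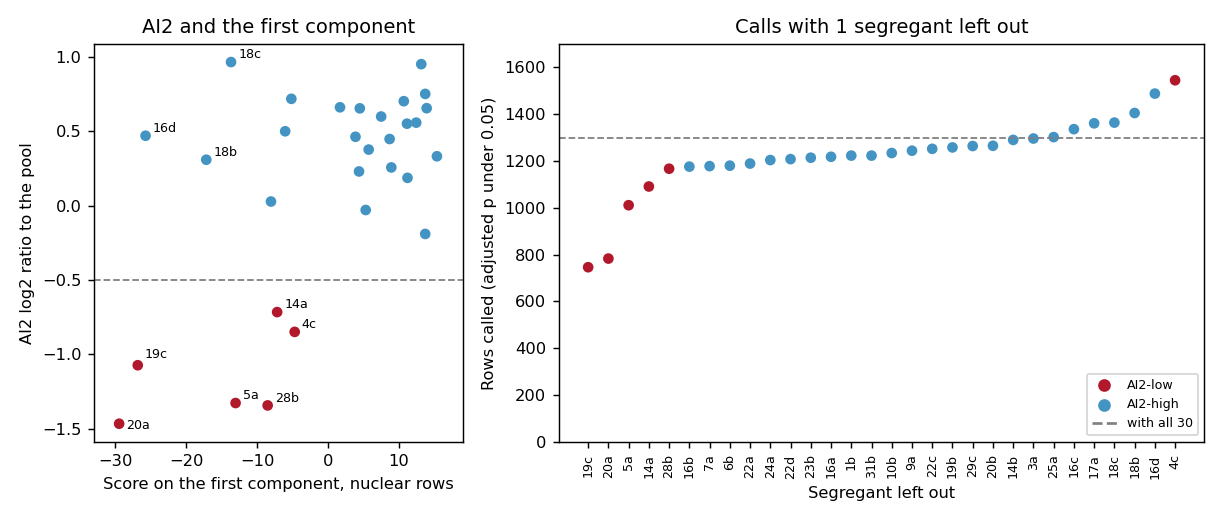
Left, AI2 log2 ratio to the pool against the score of each segregant on the first principal component of the nuclear rows (no unit), with AI2-low and a few AI2-high segregants named; 19c and 20a are low on both axes, 16d only on the component. Right, number of rows called between the groups when the segregant named on the horizontal axis is left out, against 1300 with all 30 (dashed); the number falls to 746 without 19c and 783 without 20a and rises to 1545 without 4c.

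Few nuclear genes separated the groups. Only 4 of the 4372 rows (0.09%) had no overlap between AI2-low and AI2-high strains, against 1 of the 7 mitochondrial rows tested. These were MPP10, a component of the processome of the small ribosomal subunit, CNA1, a catalytic subunit of calcineurin, BFA1, of the checkpoint on spindle position, and AIM18, named here after their values were seen. All were higher in the AI2-low group, by 0.56 for MPP10, 0.51 for CNA1, 0.45 for BFA1 and 0.38 for AIM18 (limma adjusted p = 0.00044, 0.00029, 0.00072 and 0.0018), and all stayed called without 19c and 20a, at adjusted p of 0.0061 to 0.021 by limma.

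The 10 nuclear genes of largest difference that were lower in the AI2-low group were HSP30, GZF3, TIP1, OLE1, PIR3, YGP1, SED1, YRO2, INO1 and YSA1. YSA1, a hydrolase of ADP-ribose, had the smallest adjusted p of the 10. It was at -0.49 in 4c, -1.22 in 5a, -0.42 in 14a, -0.64 in 19c, -0.23 in 20a and -0.94 in 28b, against -0.49, 0.57 and 1.31 as lowest, median and highest of the AI2-high group. The difference was 1.15 ± 0.17 (SE, limma adjusted p = 2.7e-05), and 0.00032 was its adjusted p without 19c and 20a. YRO2, a membrane protein related to HSP30, was between -1.55 and -0.65 in the AI2-low and -0.80 and 1.51 in the AI2-high group (difference 1.21, limma adjusted p = 0.00013).

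YGP1, a secreted glycoprotein made when nutrients run low, differed by 1.26 (limma adjusted p = 0.00011), and 28b (-1.52), 20a (-1.29) and 19c (-1.10) were its lowest AI2-low strains. TIP1 and PIR3, both proteins of the cell wall, differed by 1.51 and 1.32 (limma adjusted p = 0.0022 and 0.00093). For TIP1 the AI2-low strains ran from -2.32 in 14a to 0.02 in 5a and overlapped the AI2-high range of -1.43 to 2.09. SED1, a wall glycoprotein of stationary cells, differed by 1.24, and its adjusted p went from 0.0077 to 0.13 by limma without 19c and 20a.

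OLE1, the only fatty acid desaturase of yeast, which needs oxygen, was at -0.84 in 4c, -1.41 in 5a, -0.40 in 14a, -1.15 in 19c, -1.13 in 20a and -2.09 in 28b, and from -1.11 through 0.22 to 1.65 in the AI2-high group. The difference was 1.37 ± 0.28 (SE, limma adjusted p = 0.00087). GZF3, a GATA factor that represses nitrogen-regulated genes, differed by 1.59, with 5a far below the others at -2.32. HSP30, which restrains the proton pump of the plasma membrane under stress, had the largest difference, 1.75, with an SE of 0.54. The AI2-high strains spread over the whole scale for HSP30, from -2.32 to 2.09, and its adjusted p of 0.017 became 0.10 without 19c and 20a (limma). INO1, for inositol synthesis, behaved likewise, with a difference of 1.16 and adjusted p of 0.027 and 0.096 by limma. All 6 AI2-low strains were below the pool for 9 of these 10 genes.

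**Figure D4:**
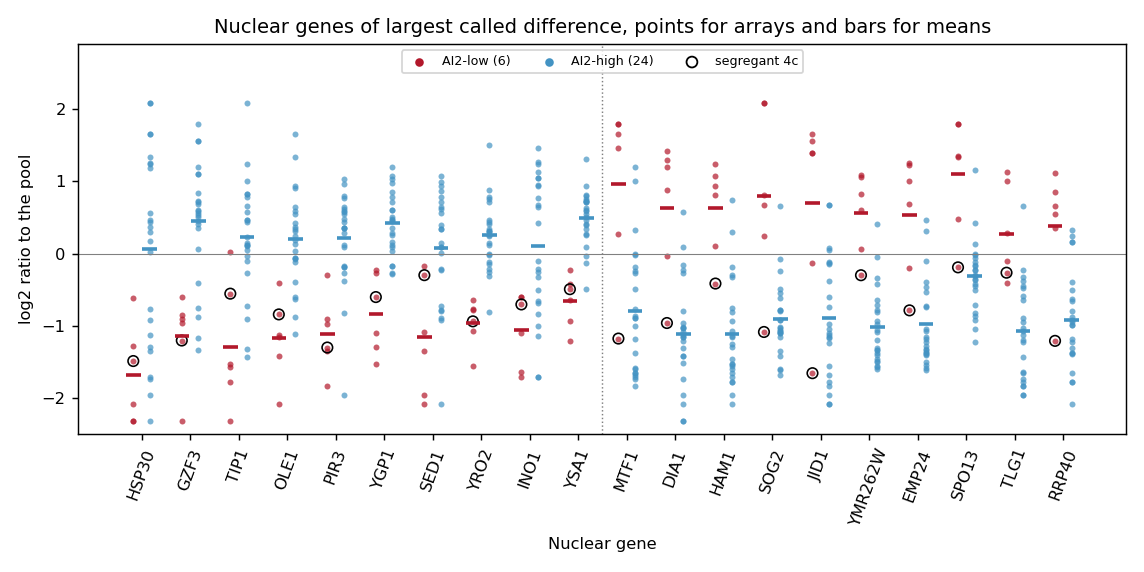
Log2 ratios to the pool (vertical axis) of the 10 nuclear genes of largest called difference in each direction (horizontal axis, HSP30 to YSA1 lower and MTF1 to RRP40 higher in the AI2-low group), a point for each segregant and a bar for each mean, with 4c circled. The groups overlap for all 20 genes, and 4c lies below the pool for all 10 genes on the right.

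The 10 genes of largest difference that were higher in the AI2-low group had a different makeup within the group. 19c and 20a were above the pool for 10 of 10 and 4c was below it for 10 of 10, being the lowest AI2-low strain for 9. MTF1, the factor that lets the mitochondrial RNA polymerase find its promoters, was the largest. It was at 1.80 in 14a, 1.65 in 19c, 1.46 in 20a, 1.80 in 28b and 0.27 in 5a, but at -1.18 in 4c, against -1.83, -0.89 and 1.20 as lowest, median and highest of the AI2-high group. The difference was -1.76 ± 0.40 (SE, AI2-high minus AI2-low, limma adjusted p = 0.0022), and -1.47 without 19c and 20a (adjusted p = 0.060 by limma). Without 4c it was -2.19 (limma adjusted p = 0.00016). MTF1 was thus high in 4 of the 6 AI2-low strains and low in 4c. The paper reports a negative correlation of MTF1 with assimilated nitrogen. Whether MTF1 is related to the level of mitochondrial RNAs was not tested.

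HAM1, which removes non-canonical nucleoside triphosphates, was at -0.41 in 4c, 0.10 in 5a, 0.94 in 14a, 1.07 in 19c, 0.81 in 20a and 1.24 in 28b, and had a median of -1.27 in the AI2-high group (difference -1.74, limma adjusted p = 0.00026). YMR262W, to which no role is given here, had the smallest adjusted p of the 10, 3.2e-05 by limma, at a difference of -1.58 ± 0.23 (SE). SOG2, of the RAM signalling network, reached the upper end of the scale, 2.09, in both 19c and 20a. JID1, a mitochondrial J-protein, was at -1.65 in 4c and between 1.39 and 1.65 in 14a, 19c, 20a and 28b (difference -1.59, limma adjusted p = 0.0049, and 0.11 without 19c and 20a, while without 4c the difference was -2.06). The meiotic gene SPO13 differed by -1.41, DIA1 by -1.74, the cargo receptor EMP24 by -1.51, the SNARE TLG1 by -1.35 and the exosome subunit RRP40 by -1.30 (limma adjusted p from 0.00026 to 0.0024). Of these TLG1 lost its call without 19c and 20a (limma adjusted p = 0.068).

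Without 19c and 20a, 7 of the 10 genes in each direction stayed past the threshold. Between the parents 7 of these 20 genes were called, and SOG2, HAM1, YMR262W, YRO2, YSA1 and GZF3 were among those that were not (limma adjusted p from 0.035 to 0.85). The paper, at a permissive threshold, linked expression of MTF1, HAM1, DIA1, JID1, YMR262W and RRP40 to a region of chromosome XIV. That region overlaps the one it mapped for the maximal rate and assimilated nitrogen. It linked HSP30 to a region of chromosome II. Among the AI2-low strains 4c assimilated the most nitrogen, 342 mg per l, and 14a the least, 238. Whether the groups differ at these regions was not tested.

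Nuclear genes that serve the mitochondrial genome did not move as a body. Of the 11 genes on the array for splicing of mitochondrial introns, 1 was called as higher in the AI2-high group, 3 as higher in the AI2-low group and 7 were not called, with a median difference of 0.00 against -0.02 over all nuclear rows. MRS1, a cofactor for the splicing of introns of COB and COX1, was at -1.95 in 4c, 0.38 in 5a, 2.09 in 14a, 0.97 in 19c, 0.91 in 20a and 1.51 in 28b, against -1.74 to 0.90 in the AI2-high group. It thus had both a very low and very high AI2-low strains, and its difference was -1.07 ± 0.38 (SE, limma adjusted p = 0.035), or -1.59 without 4c (limma adjusted p = 0.00075). The paper linked MRS1, too, to the region of chromosome XIV named above. MRS2, the magnesium channel of the inner membrane, differed by -0.53 and CCM1, a PPR protein needed for the removal of COB and COX1 introns, by -0.36 (limma adjusted p = 0.0051 and 0.0016). MNE1, needed to splice the COX1 intron AI5β, differed by 0.37 (limma adjusted p = 0.048). The 4 calls are 36.4% of the list, against 29.6% of all rows, and none of the 11 was called without 19c and 20a. The other 7 differed by -0.16 for MTF2 to 0.31 for MRS3, with CBT1 at 0.21, SUV3 at 0.26, MRS4 at 0.09, QRI5 at -0.06 and PET54 at 0.00 (limma adjusted p from 0.073 to 1.0).

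Of 14 genes for mitochondrial transcription and for activation of translation, 5 were called and all 5 were higher in the AI2-low group (35.7%, against 17.1% of all rows in that direction). Without 19c and 20a none of the 14 was called. Besides MTF1 the 5 include AEP3, which stabilises the mRNA of ATP6 and ATP8 (difference -0.91, limma adjusted p = 0.00082, and 0.058 without 19c and 20a). CBP1, which protects the mRNA of COB, differed by -0.64 and was not called, since the AI2-low strains divided into 5a, 14a and 28b at -1.83 to -1.52 and 4c, 19c and 20a at 0.21 to 0.72. Among 19 genes for maintenance and inheritance of mitochondrial DNA only 2 were called, both higher in the AI2-low group: MHR1, a recombinase of mitochondrial DNA (-0.63), and MDM12, of the tether to the endoplasmic reticulum (-0.42, limma adjusted p = 0.029 and 0.0046). These are 10.5% of the list, against 29.6% of all rows, and both lost the call without 19c and 20a (adjusted p = 0.38 and 0.073 by limma). FZO1, for mitochondrial fusion, differed by 0.46 and was not called.

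Nuclear subunits of the respiratory chain and the ATP synthase did not follow the mitochondrial ones. Of 36 such genes 3 were called in each direction and 30 were not, a share of 16.7% called against 29.6% of all rows (1 of 36 without 19c and 20a), and their median difference was 0.07. The largest differences were those of ATP20 (-0.46, limma adjusted p = 0.042, and 0.51 without 19c and 20a), ATP2 (0.45) and ATP5 (-0.41), of which the last 2 were not called. Of 17 genes for the assembly of respiratory complexes 3 were called, CBP4 as higher in the AI2-low group (difference -0.68, limma adjusted p = 0.0023) and COA1 and COX18 as lower (0.62 and 0.61, limma adjusted p = 0.015 and 0.029). Without 19c and 20a none of the 17 was called, with CBP4 at 0.079, COA1 at 0.096 and COX18 at 0.14 (limma adjusted p), and the 3 calls with all strains are 17.6% of the list. Of 58 genes listed as mitochondrial ribosomal proteins 7 were called as higher in the AI2-high and 10 as higher in the AI2-low group (29.3%), with IMG2 (0.79), MRPL13 (0.71) and PPE1 (-0.68) the farthest apart. Whether each listed gene, PPE1 among them, is a part of the ribosome was not checked. These 3 lost the call without 19c and 20a (limma adjusted p = 0.23, 0.22 and 0.062), and 3 of the 58 were called there.

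Mitochondrial import had 4 of 25 genes called as higher in the AI2-high and 5 as higher in the AI2-low group, 36.0% of the list against 29.6% of all rows, and only 1, PAM1, was called without 19c and 20a. MAS2, a subunit of the processing peptidase, differed by -0.40 and was not called, and TIM13 by -0.33 (limma adjusted p = 0.016, and 0.14 without 19c and 20a). PAM1 (0.36) entered this list by the pattern of its name and is not known as a part of the import motor. In the tricarboxylic acid cycle and its regulation, 5 of 20 genes were called (25.0%), and 2 without 19c and 20a. IDP1, the mitochondrial isocitrate dehydrogenase that makes NADPH, was at 0.22 in 4c, -0.43 in 5a, -0.66 in 14a, -0.85 in 19c, -0.40 in 20a and -0.70 in 28b, against -0.14 to 0.66 in the AI2-high group. Of the AI2-low strains only 4c lay in that range (difference 0.73 ± 0.12 SE, limma adjusted p = 0.00013, and 0.0075 without 19c and 20a). IDH1, of the NAD-dependent enzyme, differed by 0.67 (limma adjusted p = 0.0054, and 0.057 without 19c and 20a), and RTG3, of the retrograde response, by -0.40, which was not called.

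Genes of haem synthesis and of regulation by oxygen were called in 5 of 14 cases, all higher in the AI2-low group (35.7%, against 17.1% of all rows in that direction), with a median difference of -0.26. HAP2, of the activator of respiratory genes, differed by -0.65, ANB1, the translation factor used when oxygen is scarce, by -0.58, and HEM1, the first enzyme of haem synthesis, by -0.38 (limma adjusted p = 0.0018, 0.00099 and 0.0099). Without 19c and 20a only ANB1 of these was called (adjusted p = 0.030 by limma). Of 10 genes for iron-sulfur clusters 1 was called, as higher in the AI2-low group (10.0%, against 17.1% of all rows in that direction). This was ISA1 (-0.25, limma adjusted p = 0.012, and 0.073 without 19c and 20a), while ARH1 (0.58) and IBA57 (-0.39) were not called.

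Of 32 stress genes 7 were called as lower and 1 as higher in the AI2-low group, 25.0% of the list against 29.6% of all rows. By direction, 12.6% of all rows were called as lower and 17.1% as higher in the AI2-low group. Without 19c and 20a, 2 of the 32 were called. CTT1, the cytosolic catalase, differed by 0.93 and SPS100, a spore wall gene, by 1.07 (limma adjusted p = 0.012 and 0.0070, and 0.030 and 0.058 without 19c and 20a). Of 24 genes under nitrogen catabolite repression 5 were called, all lower in the AI2-low group. This is 20.8% of the list, against 12.6% of all rows in that direction. Only 1, GZF3, was called without 19c and 20a. UGA1 (0.63) and DAL4 (0.55) lost the call there (limma adjusted p = 0.073 and 0.32). Of 34 genes of glycolysis and ethanol formation 5 were called, all higher in the AI2-low group, which is 14.7% of the list against 17.1% of all rows in that direction, and 3 were called without 19c and 20a. TDH2, a glyceraldehyde-3-phosphate dehydrogenase, was at 0.46 in 4c, 1.65 in 5a, 1.18 in 14a, 1.07 in 19c, 0.90 in 20a and 1.12 in 28b, and from -0.34 through 0.29 to 1.22 in the AI2-high group (difference -0.71, limma adjusted p = 0.0027, and 0.027 without 19c and 20a). TDH3, its near copy, differed by -0.50 (limma adjusted p = 0.052), and signal may be shared between such copies. GLK1 differed by 0.43 and was not called.

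Of 12 genes of haploid mating 2 were called as higher in the AI2-high and 4 as higher in the AI2-low group, which is 50.0% of the list against 29.6% of all rows. MFA2, the a-factor gene, differed by 0.61, MATALPHA1 by -0.47 and HMLALPHA1 by -0.53 (limma adjusted p = 0.042, 0.040 and 0.0084). Signal may be shared between MATALPHA1 and HMLALPHA1, so they may not be separate calls. In the MATa parent 59A MFA2 was at 1.20, against 0.01 in S288C. MATALPHA1, however, was also higher in 59A, at 0.09 against -0.12 (limma adjusted p = 0.0093), and is not read as mating type here. None of the 12 was called without 19c and 20a. MFA2 was at 0.68 in 5a and between -0.60 and -0.17 in the other AI2-low strains. Whether mating type has a part in other differences between the groups was not tested.

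The fermentation traits were compared over the same segregants. Each is 1 deposited value for a strain, and 10 traits were tested by an exact permutation of the group labels (two-sided, Benjamini-Hochberg over the 10). Pyruvic acid at the end of the fermentation was the trait that differed most. It was 0.210 g per l in 4c, 0.267 in 5a, 0.308 in 14a, 0.260 in 19c, 0.215 in 20a and 0.278 in 28b. In the AI2-high group it ran from 0.0725 through a median of 0.140 to 0.368 g per l. All 6 AI2-low strains were above that median, although the groups overlapped. The means were 0.256 ± 0.0378 (SD, n = 6) and 0.166 ± 0.0692 g per l (SD, n = 24), a ratio of 1.54 (exact permutation p = 0.0049, adjusted p = 0.049). The adjusted value sits at the threshold, and 21 of 30 fits with 1 segregant left out put it on the other side, with adjusted exact p up to 0.19. The authors' means were 0.06 g per l for S288C and 0.1 for 59A, both below every AI2-low segregant. This is not particular to the AI2-low group. Every AI2-high segregant was above the S288C mean too, and the AI2-high median was above the 59A mean.

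The cell population was smaller in the AI2-low group, at 115 ± 35.3 (SD, n = 6) against 165 ± 56.6 megacells per ml (SD, n = 23), but this did not pass the adjustment (exact permutation p = 0.046, adjusted p = 0.23). The lowest value was that of 19c, 69.0 megacells per ml, and the highest of the AI2-low group was that of 5a, 162. R70, the rate of CO2 release at 70% of the fermentation, was 1.62 ± 0.327 against 1.35 ± 0.418 g per l and h (SD), and all 6 AI2-low strains were above the AI2-high median of 1.25 (exact permutation p = 0.16, n = 6 and 24, adjusted p = 0.41). The paper, which correlated single genes with the traits, reports negative correlations with R70 for Q0182, ATP6 and COB. HSP30 and SPS100 are listed there with the same sign. The split into 2 groups does not use the level of these rows within a group.

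**Figure D5:**
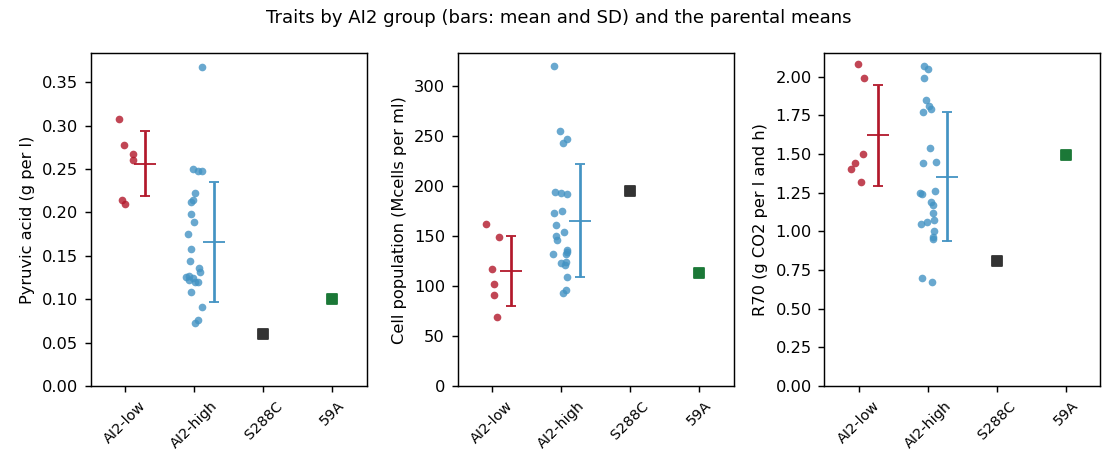
Pyruvic acid, cell population and R70 (vertical axes, in g per l, megacells per ml and g CO2 per l and h) in the AI2-low and AI2-high segregants, a point for each strain with mean and SD beside it, and the authors' means of the parents as squares. The AI2-low strains lie between 0.210 and 0.308 g per l of pyruvic acid, all above the AI2-high median of 0.140, and the groups overlap in all 3 traits.

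The other traits differed by less than their spread. The maximal rate Rmax was 2.04 ± 0.483 against 2.15 ± 0.511 g CO2 per l and h (SD). The rate R50, at mid-fermentation, was 1.91 ± 0.432 against 1.76 ± 0.494. The fermentation lasted 84.5 ± 13.8 h against 89.9 ± 22.7 h. Assimilated nitrogen was 303 ± 36.7 against 307 ± 38.8 mg per l, a difference of 3.96 with an SE of 17.5 (an axis of the study reads mg per ml, but the size of the values is that of mg per l). Glycerol was 5.96 ± 0.766 against 5.53 ± 0.620 g per l, succinic acid 0.323 ± 0.0696 against 0.309 ± 0.0526 and acetic acid 0.831 ± 0.449 against 0.901 ± 0.284 g per l. Adjusted exact permutation p-values of these 7 traits lay between 0.41 and 0.82. The acetic acid values of the AI2-low strains ran from 0.278 g per l in 4c to 1.33 in 14a, against 0.381 to 1.46 in the AI2-high group, and 4c was also the AI2-low strain with the highest Rmax, 2.87, together with the shortest fermentation, 61.3 h.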

How the data were processed

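Expression and fermentation traits of 30 segregants and 5 cultures of each parent were taken from 2 deposited tables. The authors made the log2 ratios from 2-colour arrays by print-tip loess within arrays and quantile normalization between them in R 2.9.2 with limma, averaging 2 technical hybridisations. The log base and the direction, sample over pool, come from the study's methods and are not stated in the table. It holds 4388 rows on 40 arrays with 53 missing values in 14 rows, and every array runs from -2.32 to 2.09, so that values at these ends have no order. Array medians lay between -0.026 and 0.028. The trait table, deposited in physical units, holds the authors' means. The RefSeq table of assembly R64 gave symbols for 4104 rows, and 284 keep the array's name. Arrays carry no depth, and the number of strains limits the precision.

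The AI2 groups were set against each other by limma (version 3.58.1, lmFit with eBayes, R 4.3.3; AI2-high minus AI2-low, Benjamini-Hochberg over 4387 rows, adjusted p under 0.05) and parents likewise (adjusted p under 0.01, as in the methods). The fit was tested on simulated data. Rows of the COX1 gene, and ATP8 and ATP6 downstream of it, share a transcript with AI2 and are described without a test. Exact permutation tests enumerated all 593775 groupings in Python 3.11.15 with numpy 2.4.6 and scipy 1.17.1. Labels and methods differ in culture volume, labelling kit and the mating type of S288C. The members, gene lists and tests were chosen with earlier results of these data known. Named genes are every mitochondrial row, the 10 nuclear genes of largest called difference in each direction, all genes for splicing of mitochondrial introns, and the 3 of largest difference in each other list. Alternatives were robust moderation, the methods' t-test, a rank-sum test, AI2 limits of -1.0 and -0.25, AI2 as a continuous level, 1 spore for each ascus, the ascus as a random block, median centring, complete rows, nitrogen as a covariate, a stricter threshold and each segregant left out. Fits without 19c and 20a, without 4c, without the 6 arrays low on the first component, and with that component as a covariate were added after the data were seen.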

Additional observations from a re-analysis of the deposited data

Results flagged for a closer look

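In groups of 5 or 6 arrays, a value was picked out where its gap to the nearest other value exceeded 0.71 of the range (5 cultures of a parent) or 0.625 of it (6 AI2-low segregants). Of 125 groups looked at 12 were picked out, where chance gives about 1 in 20.

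Segregant 4c was picked out in the AI2-low group for COX1 (-0.34), OLI1 (0.20) and COX2 (0.23), each time as the highest of the 6, and for RRP40 (-1.21), as the lowest. Segregant 5a was picked out for Q0297 (0.20), GZF3 (-2.32, the lower end of the scale) and MFA2 (0.68), and 28b for SUV3 (1.00). Among the parents, 59A culture 3 stood apart for AI2 (-1.95, where the other 4 share the value -2.09, 1 step lower on the scale), culture 5 for ATP6 (0.33) and culture 1 for COX2 (-0.40), and S288C culture 2 for COB (0.46). The causes were not tested.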

How the results depend on the processing

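The count of 1300 rows called between the AI2 groups went to 799 with a rank-sum test and 544 at an adjusted p under 0.01, and, in fits added after the data were seen, to 438 with the first component as a covariate, 257 without 19c and 20a and 105 without the 6 arrays low on that component. Leaving out 1 segregant gave 746 (without 19c), 783 (without 20a) and up to 1545 (without 4c); the fits without AI2-low strains have fewer samples in the smaller group. An AI2 limit of -0.25 gave the same groups. Of the 7 mitochondrial rows off the transcript of COX1, ATP8 and ATP6, 6 or 7 were called under every alternative, except 4 without the 6 arrays. The 1352 rows called between the parents became 1202 with the replicate block and 1148 to 1367 with 1 culture left out; cultures with the same number did not deviate together (correlations of -0.29 to 0.39), so the numbers do not pair them. Pyruvic acid kept its direction but lost its call with an AI2 limit of -1.0 (-0.0817 g per l), with the first spore of each ascus (-0.0846) and without 19c and 20a (-0.0997), and ran from -0.0995 to -0.0799 with 1 segregant left out. Traits that were not called changed sign: Rmax without 19c and 20a (-0.0668 g CO2 per l and h), nitrogen with the limit of -1.0 (-3.75 mg per l, and -9.01 to 11.8 with 1 segregant left out), acetic acid by medians (-0.002 g per l) and without 4c (-0.0405, and -0.0405 to 0.170 with 1 left out), and succinic acid with 1 left out (-0.0275 to 0.012). Of 59 named rows called, 32 lost the call without 19c and 20a and 36 without the 6 arrays. With the component as a covariate, 34 lost the call and kept their sign, and MHR1 lost it with a change of sign. That covariate shrank 22 by over 1.5 times, such as GZF3 to 0.68 and TLG1 to -0.40 (limma adjusted p = 0.15 and 0.19). Among the named genes the sign changed for MHR1, called at first, with the component as a covariate (0.086), and otherwise only for genes not called: with that covariate PET54 (-0.24), SUV3 (-0.089), CBT1 (-0.14), MTF2 (0.088), CBP1 (0.49), ATP5 (0.27), RTG3 (0.004) and IBA57 (0.37), without 19c and 20a QRI5 (0.073), without the 6 arrays PET54 (-0.007), QRI5 (0.123) and SUV3 (-0.064), by rank-sum test MRS4 (-0.015) and PET54 (-0.015), and for PET54 with the limit of -1.0 (-0.046), AI2 as a continuous level (-0.008) and without 4c (-0.06). The causes were not tested. The number of AI2-low strains limits what any of these fits can show.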
